A study of Mus musculus with 12 samples.

Results

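Cytochrome P450 enzymes are haem proteins that insert oxygen into drugs, steroids, bile acids and fatty acids, and most of those in the body work in the endoplasmic reticulum of hepatocytes. They take electrons from a reductase and from cytochrome b5, and nuclear receptors such as the pregnane X receptor set the transcription of many of them. The genes described here are the mouse P450 genes other than Cyp2e1, Cyp2a5, Cyp2f2, Cyp1a2, Cyp4a12a, Cyp4a12b, Cyp7a1, Cyp7b1, Cyp8b1, Cyp27a1, Cyp2a4, Cyp2b9 and Cyp51. They were taken by symbol, as every other gene whose symbol is Cyp followed by a digit, letters and digits. The rule, with the genes it leaves out, was set with earlier results of these data known. It gave 72 of the 19053 genes named on the array, of 87 P450 symbols in all. Another 13 were the genes just listed, and 2 were pseudogenes with symbols of another form.

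RNA of hepatocytes, macrophages and sinusoidal endothelial cells (SEC, the lining of the liver's capillaries) was hybridised to 12 Illumina mouse bead arrays, with 2 arrays in each of 6 groups. Each cell type came from male C57Bl/6 mice given 25 mg/kg of intraperitoneal diethylnitrosamine (DEN), a liver carcinogen, on postnatal day 25 and followed for 9 months, or from untreated mice of the same age, and every sample title carries the genotype WT. Each DEN sample pooled 3 to 4 animals. The labels name no method of cell isolation, and whether both arrays in a group hold RNA of different mice is not stated there either. The p-values therefore reflect the spread between these arrays alone, which may be technical. A bulk preparation cannot tell fewer cells of a type from less RNA per cell.

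Levels are the deposited log2 values of 1 probe per gene. A change is the DEN level less the untreated level on that scale, given ± SE (n = 2 arrays in each group). Each SE and p-value used 1 spread per gene, shared by all 12 arrays. Hepatocyte replicates differed more than the others (given below), so the SE and p-values of hepatocyte changes may be too small. The background of an array was set at the 95th percentile of its 1504 olfactory and vomeronasal receptor probes, which was 7.50 to 7.57 in hepatocytes and 7.42 to 7.44 in the other cell types. A gene was tested where its probe exceeded background on both arrays of at least 1 group, which left 42 of the 72 P450 genes among 12416 genes. A P450 gene that passed through 1 group alone had to be higher there, so the counts below describe the 42 tested genes and not the family. A fold written with "at least" has a dimmer group that was below background on both its arrays, and the background level stands in for that group. Adjusted p-values are those of limma with Benjamini-Hochberg adjustment over the 12416 genes, two-sided, with 0.05 as the threshold. Across probes the replicates of a group correlated with r between 0.9912 (DEN hepatocytes) and 0.9984, and their differences had an SD of 0.145 in untreated and 0.177 in DEN hepatocytes and of 0.078 to 0.1 in the other groups. Markers followed the labels in untreated mice, with summed hepatocyte markers of 325928 to 326220 in hepatocytes against 7456 to 14143 elsewhere and SEC markers of 133139 to 135509 in SEC against 6272 to 25779. Kupffer cell markers summed to 240403 to 241719 in macrophages, but also to 126191 to 129726 in SEC. The number of named probes above background ran from 11841 on a DEN hepatocyte array to 18066 on a DEN SEC array.

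Promoters were read from RefSeq (GRCm38.p6), as the 250 bases before the start of a gene, for the 54 of 72 P450 genes with an entry. A gene with several annotated starts was counted once, where any of its promoters held the letters sought. The letters CAAAGTCCA, a binding sequence of the hepatocyte factor HNF4A, stood on either strand in 8 of these 54 genes (14.8%) and in 122 of all 27025 genes with a promoter (0.451%). These letters overlapped none of the other motifs searched. Those 8 belong to subfamilies 2C and 3A, which lie in gene clusters, so neighbouring copies share sequence and are not independent. The stretches below carry the motif in capitals with 15 bases on either side, 5′ to 3′ on the gene's strand. The first 3 belong to genes tested here, and the last, of a gene below background on all 12 arrays, is shown for its close likeness to that of Cyp3a11. Cyp3a16 and Cyp3a41b had the same stretch.
Cyp2c67 (chr19:39649144-39649182, minus strand): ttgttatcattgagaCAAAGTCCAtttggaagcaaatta
Cyp2c70 (chr19:40187327-40187365, minus strand): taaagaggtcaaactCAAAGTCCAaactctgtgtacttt
Cyp3a11 (chr5:145879940-145879978, minus strand): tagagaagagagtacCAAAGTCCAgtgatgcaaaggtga
Cyp3a16 (chr5:145469799-145469837, minus strand): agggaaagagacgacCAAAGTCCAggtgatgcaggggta

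Subfamily 4F held genes that moved in opposite directions in hepatocytes, and the promoters of 2 such pairs follow. Cyp4f16 and Cyp4f18 rose in DEN hepatocytes and Cyp4f15 and Cyp4f14 fell there. Capitals mark the core GCGTG of the dioxin receptor AHR and the letters TTGCNNAA of the C/EBP factors, on either strand. The first was found for 30.9% of all genes with a promoter and 24.1% of the P450 genes with one, the second for 10.8% and 22.2%. Cyp4f14 has 4 annotated starts, and the window of the most upstream one is printed. Neither motif was found in the windows of Cyp4f15 and Cyp4f18.
Cyp4f16 (chr17:32536307-32536556, plus strand): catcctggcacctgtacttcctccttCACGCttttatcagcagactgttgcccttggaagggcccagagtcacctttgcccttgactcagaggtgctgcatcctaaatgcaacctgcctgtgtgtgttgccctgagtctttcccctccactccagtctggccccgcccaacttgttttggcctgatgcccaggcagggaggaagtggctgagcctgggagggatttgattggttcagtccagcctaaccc
Cyp4f15 (chr17:32685409-32685658, plus strand): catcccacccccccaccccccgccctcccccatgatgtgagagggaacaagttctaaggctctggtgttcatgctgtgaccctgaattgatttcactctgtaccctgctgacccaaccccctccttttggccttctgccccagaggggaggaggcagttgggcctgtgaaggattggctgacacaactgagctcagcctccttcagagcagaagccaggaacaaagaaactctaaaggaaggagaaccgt
Cyp4f18 (chr8:72009627-72009876, minus strand): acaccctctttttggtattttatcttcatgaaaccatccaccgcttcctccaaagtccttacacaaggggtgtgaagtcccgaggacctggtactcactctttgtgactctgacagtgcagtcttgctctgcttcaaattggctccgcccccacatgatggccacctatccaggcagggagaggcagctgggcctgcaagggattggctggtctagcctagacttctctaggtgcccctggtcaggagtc
Cyp4f14 (chr17:32917357-32917606, minus strand): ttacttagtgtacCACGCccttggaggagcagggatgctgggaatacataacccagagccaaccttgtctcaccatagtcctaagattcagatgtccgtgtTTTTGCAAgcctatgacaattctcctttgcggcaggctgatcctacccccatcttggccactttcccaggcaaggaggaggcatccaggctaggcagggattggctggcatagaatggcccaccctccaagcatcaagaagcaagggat
The letters TATAAA were found for 33.3% of the P450 genes with a promoter and 14.3% of all such genes, and the STAT5 letters TTCNNNGAA for 7.41% and 8.13%. The motifs were chosen with results of these data known, and a match says only that the letters are there.

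The first comparison asks which cell type carried each P450 gene in untreated mice. Of the 42 tested genes 33 had their highest untreated level in hepatocytes, 4 in macrophages and 5 in SEC. In untreated hepatocytes 33 of the 72 P450 genes were above background on both arrays, against 24 in macrophages and 18 in SEC, and 9 were above it on both arrays of untreated hepatocytes alone: Cyp4a31, Cyp2u1, Cyp2r1, Cyp39a1, Cyp2b10, Cyp2c54, Cyp2c55, Cyp2d12 and Cyp2d13. Another 8, among them Cyp2d9, Cyp2d22, Cyp2c70, Cyp4f13 and Cyp4v3, passed in all 6 groups. By limma, 32 of the 42 were higher and 3 lower in untreated hepatocytes than in untreated macrophages (median 1.21), where 64.6% of all genes tested were called, 28% of them higher and 36.6% lower as shares of all genes. Against SEC, 31 were higher and 3 lower (median 1.08), where 67.4% of all genes were called, 28.4% higher and 39% lower. Below background on all 12 arrays were Cyp1a1, Cyp2c39, Cyp2c40, Cyp2c68, Cyp2d34, Cyp2g1, Cyp2j5, Cyp2j6, Cyp2j8, Cyp2j12, Cyp2j13, Cyp2t4, Cyp3a16, Cyp3a41b, Cyp3a57, Cyp4f17, Cyp4f40, Cyp21a1, Cyp27b1 and Cyp46a1. Another 10 exceeded it on some arrays but never on both of a group and were not tested either: Cyp2b13, Cyp2b23, Cyp2c38, Cyp2c65, Cyp2j11, Cyp3a44, Cyp4f39, Cyp4x1, Cyp11b1 and Cyp24a1.

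The largest hepatocyte excesses came in genes of subfamilies 2C and 2D, which handle drugs, bile acids and arachidonic acid. The median difference from SEC was 5.29 in subfamily 2C, 2.86 in subfamily 2D and 3.91 in family 3. Cyp2d9, a male-biased testosterone hydroxylase in mice, stood at 14.34 and 14.16 in untreated hepatocytes, 8.01 and 8.07 in macrophages and 7.76 and 7.71 in SEC. Cyp2c70, which makes the muricholic acids of mouse bile, stood at 13.94 and 14.34 in hepatocytes, 7.95 and 7.92 in macrophages and 7.67 and 7.75 in SEC. The cell types did not overlap for either gene, and hepatocytes exceeded SEC 91.3-fold for Cyp2d9 (adjusted p = 6.1e-14, limma) and 86.2-fold for Cyp2c70 (adjusted p = 8.19e-13). Cyp2d10, Cyp2c37 and Cyp2c50 exceeded the macrophage level 54-fold, 46.9-fold and 47.1-fold.

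A few P450 genes were higher in another cell type than in hepatocytes, or differed between macrophages and SEC. Cyp4b1, known from lung for activating plant toxins, stood at 12.25 and 12.28 in untreated SEC, 8.60 and 8.65 in macrophages and 7.94 and 7.94 in hepatocytes. SEC arrays lay far above the others, 19.9-fold over hepatocytes (adjusted p = 2.08e-13, limma) and 12.4-fold over macrophages (adjusted p = 1.31e-11). Cyp26b1, which breaks down retinoic acid, stood at 8.31 and 8.28 in SEC against 7.54 and 7.44 in macrophages (1.75-fold, adjusted p = 1.1e-06, limma). The macrophage values were at the edge of background and the hepatocyte values, 7.46 and 7.40, below it, which put SEC at least 1.72-fold higher. Cyp2d22, the mouse relative of human CYP2D6, stood at 12.33 and 12.19 in hepatocytes and 11.12 and 11.01 in SEC but at 8.29 and 8.30 in macrophages, so that SEC exceeded macrophages 6.83-fold (adjusted p = 6.6e-11, limma). Cyp2d40 and Cyp2j9 were also higher in SEC than in macrophages, 1.64-fold and 1.51-fold. Like Cyp2d22 they were highest in hepatocytes, at 11.14 and 10.96 and at 8.39 and 8.45. Cyp4f18, a leukotriene B4 hydroxylase of mouse myeloid cells, stood at 8.57 and 8.54 in macrophages, above its SEC values of 7.59 and 7.68 (1.89-fold, adjusted p = 1.11e-05, limma) and at least 2.07-fold above hepatocytes. Cyp4v3, highest in hepatocytes at 12.12 and 12.20, was 1.85-fold higher in macrophages than in SEC. Between macrophages and SEC 4 of the 42 were higher and 6 lower, where 45.5% of all genes were called, 23.2% higher and 22.3% lower.

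**Figure D1:**
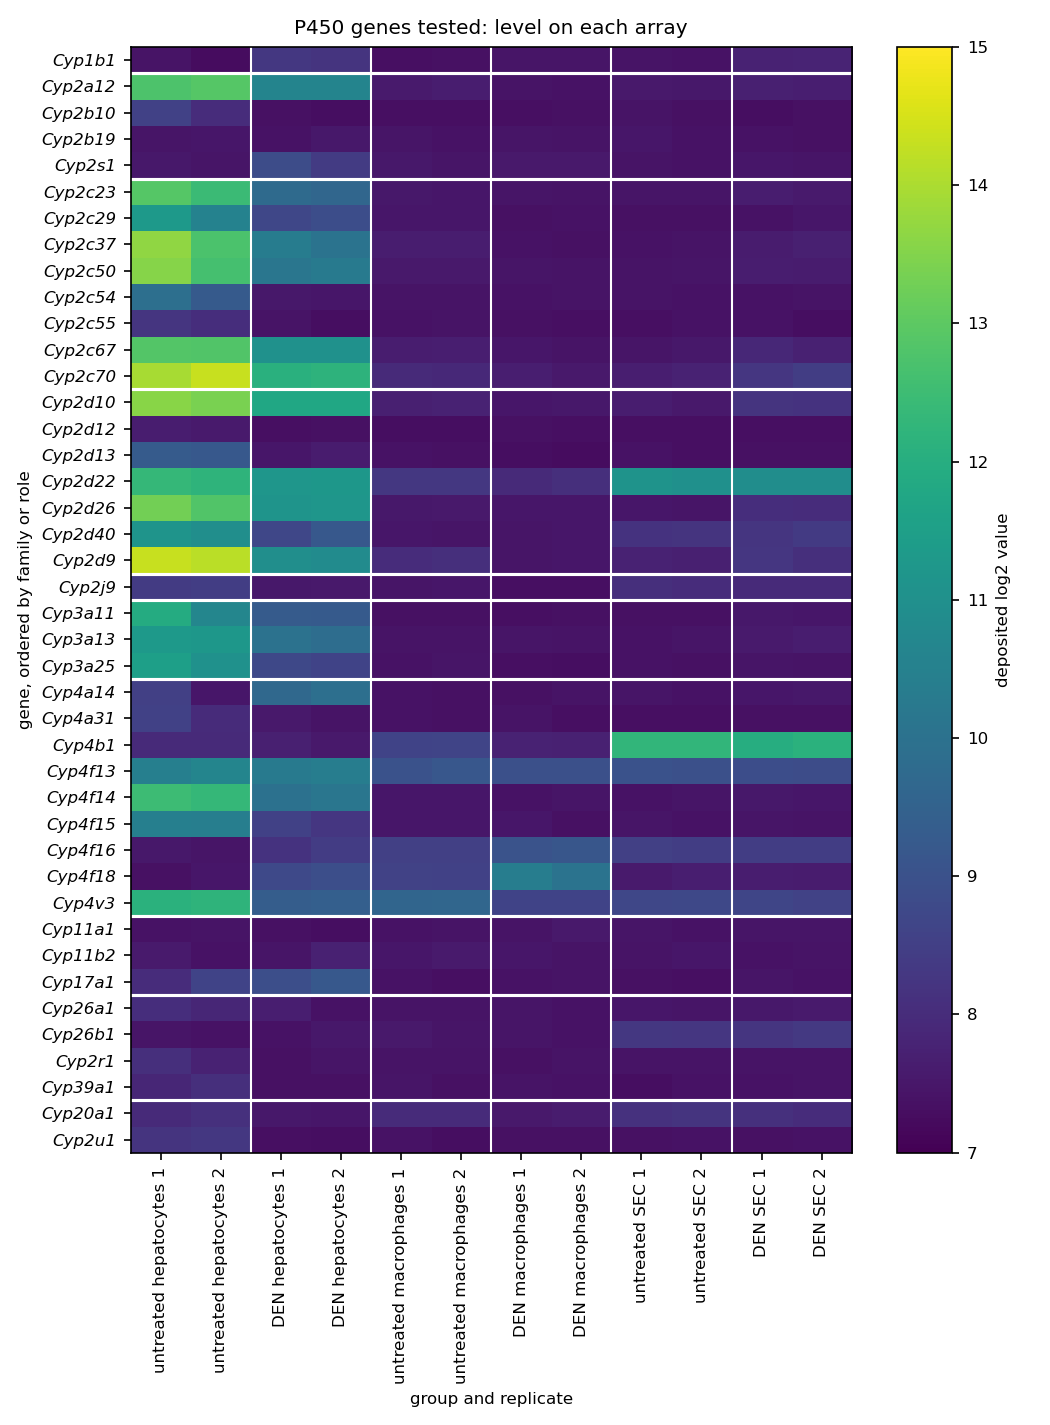
Deposited log2 level of the 42 tested P450 genes (rows, grouped by subfamily or role) on each of the 12 arrays (columns, 2 per group), with colour giving the level. Most rows are brightest in the 2 untreated hepatocyte columns, while Cyp4b1 is brightest in the SEC columns at 11.98 to 12.28.

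In hepatocytes, DEN and untreated mice were compared to ask which P450 genes changed in the cell type that carries most of them. Of the 42 tested genes 32 fell and 6 rose by limma with Benjamini-Hochberg adjustment, and 4 did not pass. Over all genes tested 67.9% were called, 36.1% lower and 31.8% higher. The median change of the 42 was -0.95, against -0.02 over all genes. At 2-fold or more, 20 fell and 3 rose, where 8.73% and 10.2% of all genes did (19% together). The summed level of the 72 genes (2 to the power of the value, background included) was 128682 to 149828 on the untreated arrays and 38495 to 38930 on the DEN arrays. Among the 20 P450 genes above background on both arrays of both groups, 19 fell and 1 rose (median -2.06), and of the 6433 such genes in all 2848 fell and 2270 rose (median -0.08). Another 13 passed in untreated hepatocytes alone and all 13 were lower, and 5 passed in DEN hepatocytes alone and all 5 were higher, which the filter itself requires in part.

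All 7 tested genes of subfamily 2D fell (of 8 on the array, median -1.71). Cyp2d9 went from 14.34 and 14.16 on the untreated arrays to 10.95 and 10.87 on the DEN arrays, the largest fall of the 42 genes, at -3.34 ± 0.07 (10.1-fold lower, adjusted p = 1.8e-11, limma). Cyp2d26 went from 13.31 and 12.83 to 11.13 and 11.21, and Cyp2d10 from 13.59 and 13.38 to 11.78 and 11.77. No DEN array reached an untreated one in these 3 genes, and other probes of Cyp2d26 gave larger falls, -2.95 and -2.84. Cyp2d40 changed by -2.09 ± 0.13 and Cyp2d13, annotated as a transcribed pseudogene, by -1.69 ± 0.06. Cyp2d22 moved less, from 12.33 and 12.19 to 11.21 and 11.22 (-1.05 ± 0.06, adjusted p = 5.58e-08, limma). Cyp2d12 was near background, at 7.64 and 7.58 in untreated hepatocytes.

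Subfamily 2C, which makes epoxides of arachidonic acid and hydroxylates drugs, had 8 tested genes of 13, and all 8 fell (median -2.12). Cyp2c37 went from 13.66 and 12.74 to 10.37 and 10.04 (-2.99 ± 0.22, adjusted p = 2.66e-07, limma), Cyp2c50 from 13.56 and 12.64 to 10.13 and 10.29 (-2.89 ± 0.21) and Cyp2c23 from 12.88 and 12.44 to 9.76 and 9.65 (-2.96 ± 0.11). The untreated arrays of Cyp2c37 and Cyp2c50 differed by more than those of Cyp2c70, but both stayed above the DEN arrays. Cyp2c70, printed above with its promoter stretch, went from 13.94 and 14.34 to 12.07 and 12.17 (-2.02 ± 0.11, 4.05-fold lower, adjusted p = 2.26e-08, limma). Cyp2c67, also printed above, changed by -1.79 ± 0.06 and Cyp2c29, a target of the receptor CAR, by -2.13 ± 0.18. Cyp2c54 was at least 4.08-fold and Cyp2c55 at least 1.49-fold lower, each below background on both DEN arrays. Genes of this subfamily are near-identical in places, so a probe may read more than 1 of them, and probes of a gene differed in size: a second probe of Cyp2c67 gave -3.64, and another of Cyp2c37 gave -0.40 from 7.71 to a level below background.

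Family 3 holds the main drug-oxidising P450s, and all 3 tested genes (of 7) fell. Cyp3a11, the chief target of the pregnane X receptor in mouse liver, went from 11.91 and 10.66 to 9.30 and 9.28. The untreated arrays lay well apart and still above both DEN arrays, for a change of -1.99 ± 0.28 (3.98-fold lower, adjusted p = 6e-05, limma). Without untreated replicate 1 the change was -1.37 and without replicate 2 -2.62, so this gene's size rests on a pair of unlike arrays. Cyp3a25 went from 11.51 and 11.06 to 8.72 and 8.62 (-2.62 ± 0.11) and Cyp3a13 from 11.29 and 11.24 to 10.03 and 9.85 (-1.32 ± 0.06). In subfamilies 2A, 2B, 2G, 2S and 2T 2 of the 4 tested genes fell. Cyp2a12, a bile acid hydroxylase, went from 12.75 and 12.89 to 10.62 and 10.60 (4.62-fold lower, adjusted p = 3.54e-11, limma), and the CAR target Cyp2b10 from 8.55 and 8.01 to 7.36 and 7.31, at least 1.65-fold lower. Cyp2j9, the 1 tested gene of 7 in subfamily 2J, was at least 1.81-fold lower.

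Family 4, whose enzymes hydroxylate the far end of fatty acids and leukotrienes, split. Of 9 tested genes (of 13) 6 fell and 3 rose. Cyp4v3, a fatty acid hydroxylase, went from 12.12 and 12.20 to 9.36 and 9.42 (-2.76 ± 0.05, adjusted p = 5.66e-12, limma). Cyp4f14, which inactivates leukotriene B4, went from 12.49 and 12.32 to 9.98 and 10.15 (-2.34 ± 0.07), and Cyp4f15 from 10.46 and 10.43 to 8.55 and 8.28 (-2.03 ± 0.08). Cyp4a31 was at least 1.62-fold lower, and Cyp4b1, low in hepatocytes, fell by 0.32 ± 0.06. Cyp4f13 hardly moved, from 10.46 and 10.64 to 10.29 and 10.40 (-0.21 ± 0.07, adjusted p = 0.0261, limma), and its call was lost without untreated replicate 2 (-0.12) or DEN replicate 1 (-0.15). It was also lost with background subtracted (-0.23, adjusted p = 0.116, limma) and with only the hepatocyte arrays in the fit (-0.21, adjusted p = 0.113).

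The rises in family 4 came in genes that were low in untreated hepatocytes. Cyp4a14, a target of the fatty acid receptor PPARα, stood at 8.53 and 7.49 on the untreated arrays, the second below background, and at 9.71 and 9.92 on the DEN arrays (1.80 ± 0.24, adjusted p = 3.83e-05, limma). Without untreated replicate 1 the change was 2.32 and without replicate 2 it was 1.28. Cyp4f18 went from 7.36 and 7.47 to 8.78 and 8.91, at least 2.53-fold higher (adjusted p = 1.27e-07, limma). A second probe of Cyp4f18 was below background in both hepatocyte groups (7.40 and 7.41 as group means) and did not show the rise. In untreated macrophages that second probe read 7.61, where the probe used read 8.56. The probe used read higher than that in DEN hepatocytes, at 8.85 as a group mean. Cyp4f16, printed above beside Cyp4f15, went from 7.50 and 7.45 to 8.16 and 8.41, at least 1.72-fold higher. Another of its probes gave 0.37, and the last was below background in both groups.

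Outside family 4, 3 genes rose. Cyp2s1, a P450 known mainly from epithelia outside the liver, stood at 7.51 and 7.44 on the untreated arrays. On the DEN arrays it stood at 8.85 and 8.40 (1.15 ± 0.11, 2.22-fold, adjusted p = 2.61e-06, limma). The first untreated value was at the edge of background and the second below it, so this fold is taken from the background level. Cyp1b1, which activates polycyclic hydrocarbons and hydroxylates oestradiol, went from 7.43 and 7.28 to 8.29 and 8.19, at least 1.67-fold higher (adjusted p = 1.13e-07, limma). Its relative Cyp1a1 was below background on every array. Cyp17a1, the steroid 17-hydroxylase, went from 8.0 and 8.61 to 8.92 and 9.20 (0.75 ± 0.15, adjusted p = 0.00106, limma), and the change was 0.45 without untreated replicate 1. The other tested steroid genes, Cyp11a1 and Cyp11b2, did not pass, and neither did Cyp2b19, all near background.

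Genes of retinoic acid, vitamin D and sterol turnover changed less, with 3 of 4 tested genes (of 7) lower and none higher. Cyp26a1, the retinoic acid hydroxylase of liver, went from 8.05 and 7.87 to 7.67 and 7.40 (-0.43 ± 0.08, adjusted p = 0.000826, limma). Cyp2r1, which adds the first hydroxyl group to vitamin D, was at least 1.29-fold lower, and Cyp39a1, an oxysterol hydroxylase, at least 1.33-fold lower. A second probe of Cyp39a1 went the other way, by 0.18. Cyp26b1 was below background in both groups. Cyp2u1 and Cyp20a1, a pair of P450s found in many tissues, were at least 1.62-fold and 1.38-fold lower.

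**Figure D2:**
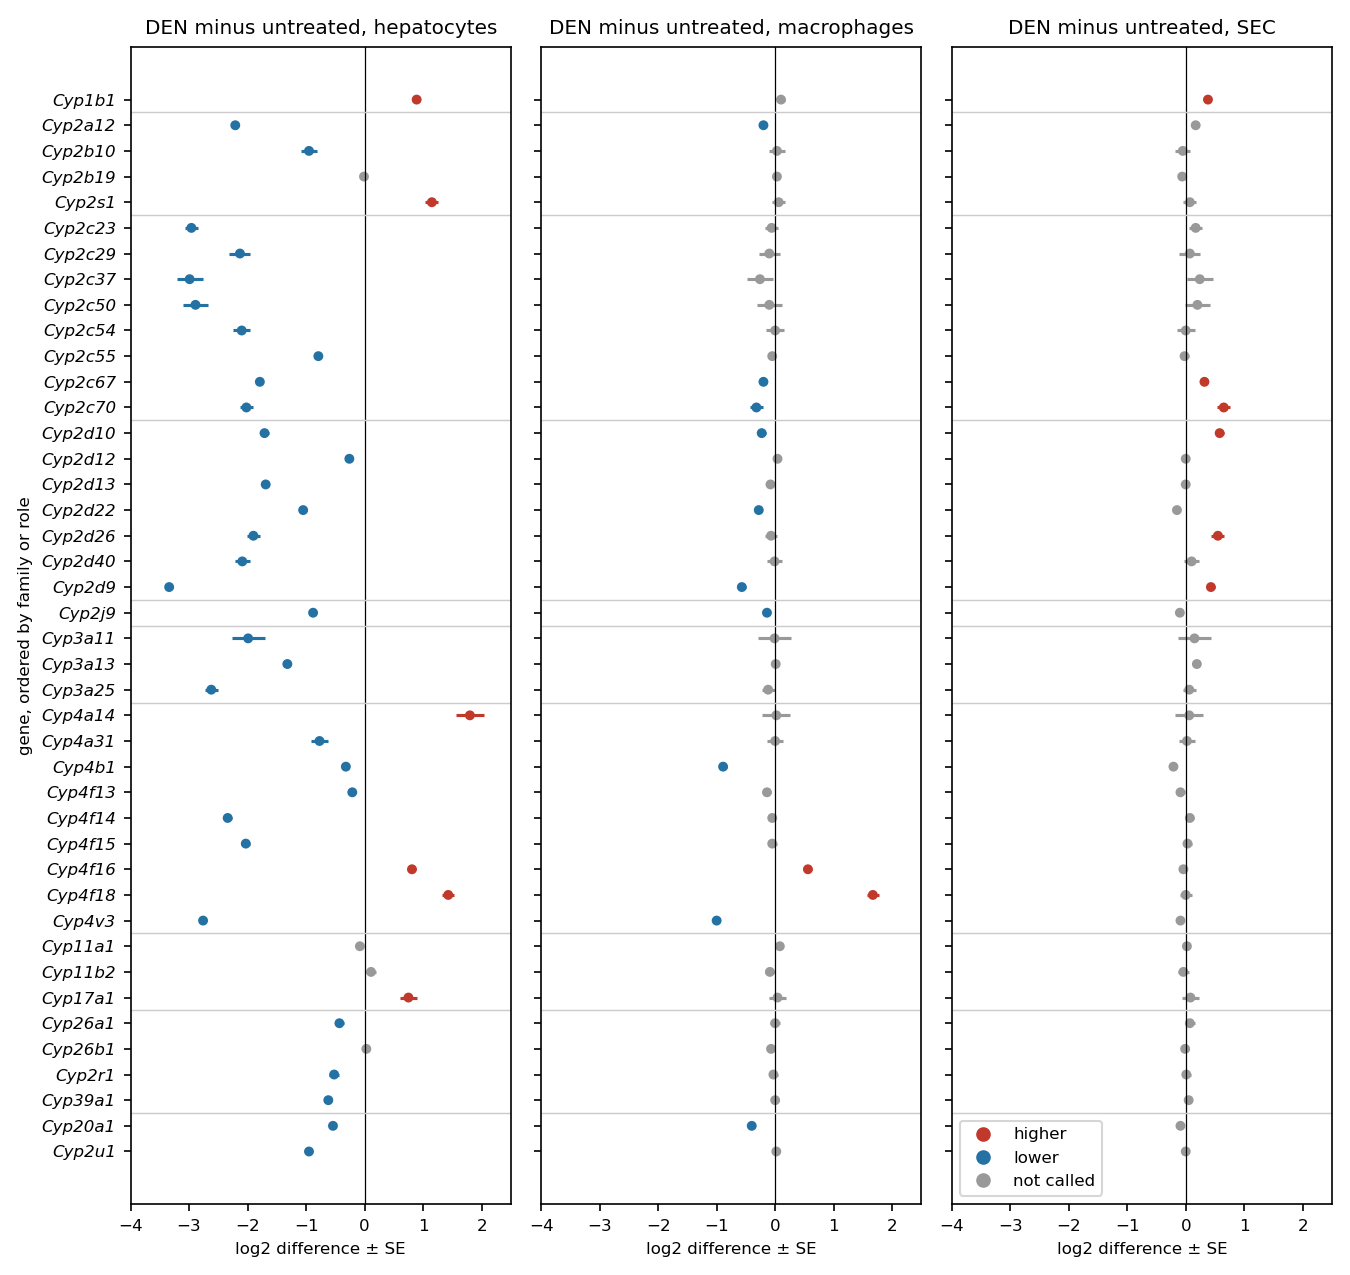
Log2 difference, DEN minus untreated, ± SE (n = 2 arrays per group) for the 42 tested P450 genes, with a panel per cell type (hepatocytes, macrophages and SEC). The SE uses 1 spread per gene over all 12 arrays. The hepatocyte points run from -3.34 (Cyp2d9) to 1.80 (Cyp4a14), and the SEC points from -0.21 to 0.65.

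Markers of other cells moved with DEN in the same hepatocyte arrays. All 12 neutrophil markers were tested, and 10 were higher and none lower (median 2.59), with a summed level of 2099 to 2127 on the untreated and 34849 to 35067 on the DEN arrays. On both untreated arrays 9 of those 12 were below background, and on both DEN arrays 1 was. Of 13 tested Kupffer cell markers 9 were higher and 1 lower (median 1.92), and of 14 SEC markers 7 were higher and 2 lower (median 0.24). Higher as well were 9 of 11 stellate cell and fibroblast markers (median 1.34), with none lower. So were all 6 of the cholangiocytes (median 1.25) and all 7 of erythroid cells and platelets (median 5.22). Over all genes tested 31.8% were higher and 36.1% lower. Of 19 hepatocyte markers 13 were lower and none higher (median -0.57), and their summed level went from 325928 to 326220 on the untreated arrays to 229366 to 236216 on the DEN arrays. The part of these markers in the P450 changes was not tested.

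The comparison of DEN with untreated macrophages gave few P450 changes. Of the 42 tested genes 10 fell and 2 rose by limma, where 43.1% of all genes were called (18.7% higher, 24.4% lower), and the median was -0.05 (-0.02 over all genes). In 1 gene each the fall and the rise reached 2-fold, as in 3.74% and 2.89% of all genes (6.63% together). Without untreated macrophage replicate 2 the number that fell was 5, and without DEN macrophage replicate 2 it was 6.

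Cyp4f18 rose most, from 8.57 and 8.54 on the untreated to 10.40 and 10.05 on the DEN arrays, the highest values of this gene in any group (1.67 ± 0.10, 3.18-fold, adjusted p = 1.03e-07, limma). Its second probe rose from 7.61 to 8.26 as group means. Cyp4f16 went from 8.53 and 8.53 to 9.04 and 9.14 (1.47-fold, adjusted p = 8.25e-05, limma), while its other probes gave -0.15 and 0.47. In the same arrays all 12 neutrophil markers were higher (median 2.60), with a summed level of 9515 to 9547 against 55133 to 67135, and 6 of 8 monocyte markers (median 1.90). The part of these cells in both rises was not tested.

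Cyp4v3 fell in macrophages as well, from 9.60 and 9.63 to 8.62 and 8.61 (-1.0 ± 0.05, adjusted p = 4.72e-08, limma). All 13 tested Kupffer cell markers fell beside it (median -3.16), with a summed level of 240403 to 241719 on the untreated and 26256 to 26932 on the DEN arrays. Cyp4b1, the SEC-rich gene, went from 8.60 and 8.65 to 7.75 and 7.72 (1.85-fold lower, adjusted p = 4.92e-07, limma), and SEC markers in these arrays from a summed 25600 to 25779 to 10036 to 10069, with 8 of 14 lower and 1 higher. Cyp2d9 went from 8.01 and 8.07 to 7.45 and 7.48 (-0.57 ± 0.07, adjusted p = 7.63e-05, limma), and Cyp2c70, Cyp2d10, Cyp2d22, Cyp2c67 and Cyp20a1 changed by -0.20 to -0.40. A second probe of Cyp20a1, also above background, gave only -0.07 (7.59 to 7.53 as group means). The call of Cyp2c70 was lost without any 1 of the 4 macrophage arrays, that of Cyp2c67 without either untreated array or DEN macrophage replicate 2, and that of Cyp2d10 without untreated macrophage replicate 2 or DEN macrophage replicate 1. Cyp2a12 and Cyp2j9 were at least 1.12-fold and 1.02-fold lower. Cyp2a12 lost its call without replicate 2 of either macrophage group and Cyp2j9 without any 1 of the 4 arrays. Of the 19 hepatocyte markers 10 were lower and 2 higher (median -0.28), with a summed level of 14024 to 14143 against 10842 to 12555. The part of these markers was not tested.

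In SEC 6 of the 42 tested genes rose and none fell, where 3.57% of all genes were called, 2.57% higher and 0.999% lower. None of the 42 reached 2-fold, as 0.685% of all genes did upward and 0.00805% downward (0.693% together). At an unadjusted p under 0.05, 10 of the 42 differed in either direction, as did 1557 of all 12416 genes, and the median change was 0.04. Cyp2c70 went from 7.67 and 7.75 to 8.28 and 8.45 (0.65 ± 0.11, 1.57-fold, adjusted p = 0.00591, limma). Cyp2d10 went from 7.64 and 7.56 to 8.19 and 8.16 (0.58 ± 0.07, adjusted p = 0.000302, limma), Cyp2d26 from 7.49 and 7.46 to 8.06 and 8.0 and Cyp2d9 from 7.76 and 7.71 to 8.26 and 8.08. In each of these genes both DEN arrays lay above both untreated ones. They are genes of the hepatocyte by their untreated levels, as is Cyp2c67, which rose by 0.32 ± 0.06. Other probes of Cyp2d26 and Cyp2c67 had untreated SEC means below background. Those of Cyp2d26 went from 7.36 to 7.48 (0.12) and from 7.40 to 7.50 (0.10), less than the 0.55 of the probe used. That of Cyp2c67 was below background in both groups as means (7.40 and 7.39) and cannot show a change there. The call of Cyp2c70 was lost without untreated SEC replicate 1 or DEN SEC replicate 2, and that of Cyp2d9 without untreated SEC replicate 2 or DEN SEC replicate 1. Cyp2c67 lost its call without untreated SEC replicate 1 or DEN SEC replicate 1, and Cyp2d26 without any 1 of the 4 SEC arrays. Both also lost it with the mean of a gene's probes above background.

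Of the 19 hepatocyte markers 11 rose in DEN SEC and none fell (median 2.06), with a summed level of 7456 to 7498 on the untreated and 41715 to 42607 on the DEN arrays. The part of hepatocyte RNA in these P450 rises was not tested. Cyp1b1 was the 1 riser with no called hepatocyte excess over SEC in untreated mice, going from 7.42 and 7.40, both below background, to 7.78 and 7.80, at least 1.28-fold higher (adjusted p = 0.0029, limma). The SEC genes did not pass: Cyp4b1 stood at 12.25 and 12.28 on the untreated and 11.98 and 12.11 on the DEN arrays (-0.21, adjusted p = 0.108, limma), and Cyp26b1 at 8.31 and 8.28 and 8.24 and 8.32 (adjusted p = 0.995). SEC markers had summed levels of 133139 to 135509 and 133261 to 135063. Without untreated SEC replicate 1 or without DEN SEC replicate 1 the number of P450 genes that rose was 3.

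**Figure D3:**
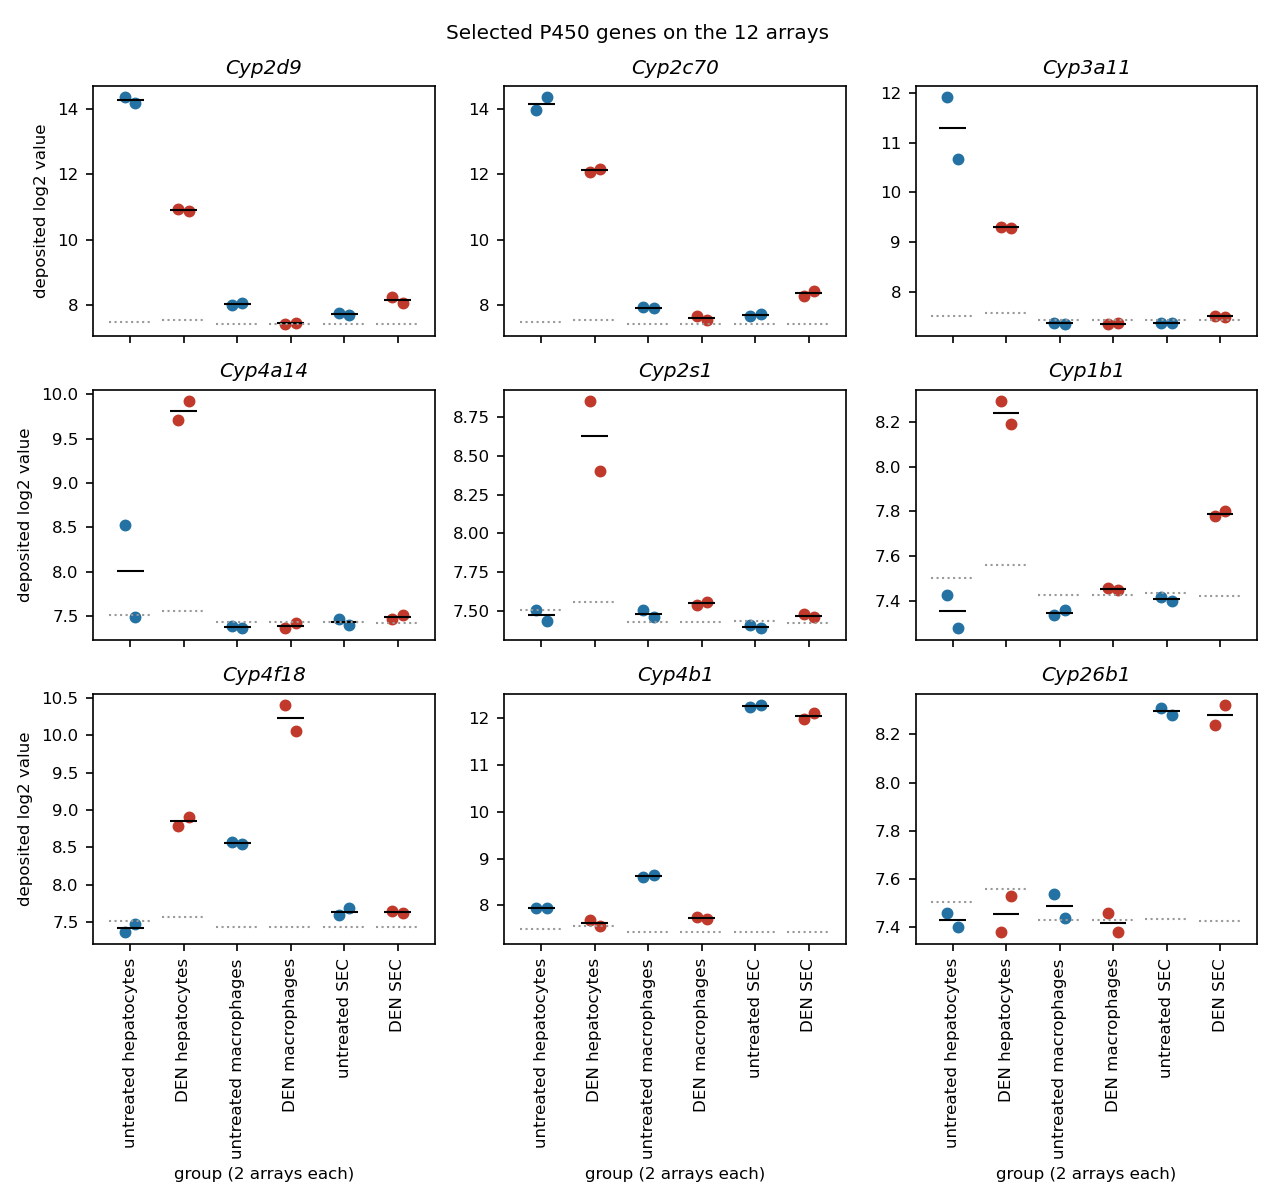
Deposited log2 level on each array (points) in the 6 groups for 9 P450 genes, one panel per gene, with the background threshold as a dotted line. Cyp4f18 is highest in DEN macrophages at 10.40 and 10.05, Cyp4b1 in SEC, and Cyp1b1 in DEN hepatocytes at 8.29 and 8.19.

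Whether the DEN change itself differed between cell types was tested as a difference of changes, in which hepatocyte results share their arrays. The change in hepatocytes was lower than that in macrophages for 29 of the 42 genes and higher for 5, where 63.2% of all genes were called (32.4% lower, 30.8% higher). It was lower than that in SEC for 30 and higher for 6, where 59.8% were called (30.2% lower, 29.6% higher). Cyp2d9 differed most against SEC (-3.77 ± 0.11, adjusted p = 2.92e-10, limma). The change in macrophages was lower than that in SEC for 10 genes and higher for 2, where 33.1% were called (17.7% lower, 15.4% higher), and the 2 were Cyp4f18 (1.67 ± 0.14, adjusted p = 3.15e-06, limma) and Cyp4f16 (0.60 ± 0.10). For Cyp4f18 the test between hepatocytes and macrophages did not pass, and both cell types rose. Cyp4b1 fell more in macrophages than in hepatocytes or SEC by this test, and its call against hepatocytes was lost with background subtracted (0.79, adjusted p = 0.0901, limma). Under the same subtraction the macrophage change of Cyp2d9 was -2.93, and its changes in hepatocytes and macrophages no longer differed past the threshold (-0.53, adjusted p = 0.13, limma). The same held for Cyp2c37 (-0.98, adjusted p = 0.0666).

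The partners of the P450 enzymes are described from lists of known genes. Over all genes tested, 36.1% were lower and 31.8% higher in DEN hepatocytes, and 24.4% lower and 18.7% higher in DEN macrophages. In DEN SEC 0.999% were lower and 2.57% higher. The P450 reductase Por had no named probe, so its level is not known here. Of 7 electron donors with a probe 6 were tested, and all 6 fell in hepatocytes. Cytochrome b5 (Cyb5a) changed by -1.65 ± 0.09 there (adjusted p = 1.4e-08, limma) and the haem-binding membrane protein Pgrmc1 by -1.08 ± 0.08. Fdx2 was near background, at 7.5 and 7.51 in untreated and 7.37 and 7.39 in DEN hepatocytes. In macrophages 5 of the 6 fell, among them the cytochrome b5 reductase Cyb5r3 (-1.29 ± 0.11), and in SEC 1 rose. Of 11 genes of haem synthesis and breakdown 7 fell and 4 rose in hepatocytes. Alas1, the rate-limiting enzyme of haem synthesis, changed by -1.91 ± 0.13 there and by 0.76 ± 0.13 in macrophages. Hmox1, the haem oxygenase that degrades haem, changed by 0.57 ± 0.08 in hepatocytes, -3.46 ± 0.08 in macrophages (adjusted p = 8.43e-11, limma) and -0.68 ± 0.08 in SEC.

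Of 19 tested sensors and regulators 11 fell and 5 rose in hepatocytes, where 36.1% of all genes tested fell and 31.8% rose. The pregnane X receptor Nr1i2 changed by -1.57 ± 0.11, CAR (Nr1i3) by -1.0 ± 0.14, Hnf4a by -1.61 ± 0.08 and the bile acid receptor Nr1h4 by -1.91 ± 0.05 (adjusted p = 9.96e-11, limma). The AHR partner Arnt rose by 2.84 ± 0.08 and the acute-phase factor Cebpb by 2.15 ± 0.05, and Ahr itself did not pass the filter. Soluble epoxide hydrolase Ephx2, which opens the epoxides made by P450s, fell by 3.04 ± 0.08. The prostacyclin and thromboxane synthases, P450s with other symbols, rose in hepatocytes, where most of the tested P450 genes fell: Ptgis was at least 6.87-fold higher and Tbxas1 rose by 2.07 ± 0.06. In macrophages they changed by -2.38 ± 0.10 and -1.76 ± 0.06. The 13 P450 genes left out by the rule had 10 falls and 3 rises in hepatocytes (median -2.28), among them Cyp2e1, the enzyme that activates DEN, and Cyp1a2, which changed by -2.18 and -1.87.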

How the data were processed

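The deposited table holds log2 values, as read from its range (7.19 to 15.19, array median 7.41), and per the submitters' processing notes lumi was used. Whether the transform is plain log2 cannot be read from the labels, so changes of dim probes may be compressed. Total RNA was taken with a column kit and biotin-labelled per the labels' protocols. The 24 columns of a second table match no sample label and were not used. The members and lists were chosen with earlier results of these data known. The array's 45281 probes comprised 34885 with 1 symbol, 18 with several and 10378 with none, and 34807 took their name from an Entrez ID. A gene was read from its probe of highest mean, and 25 of the 72 P450 genes had over 1. limma 3.58.1 (R 4.3.3) was fitted to all 12 arrays by group (lmFit, eBayes), with 1 spread per gene. The fit was also run on simulated data with the same spread of a gene on all arrays, which cannot show what unequal spread between groups does. Named genes are the 10 largest changes per direction and DEN comparison, 5 per direction in other comparisons, and a preset group. Replicate numbers did not pair samples. The number of arrays limits the precision. Figures used Python 3.11.15 and matplotlib 3.10.9.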

Additional observations from a re-analysis of the deposited data

Results flagged for a closer look

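The DEN change of P450 genes differed between cell types by limma's test of the difference of changes, adjusted by Benjamini-Hochberg over all genes, in the results given here. Between hepatocytes and macrophages 29 genes had the lower change in hepatocytes, led by Cyp2c23 (-2.90), Cyp2c50 (-2.79), Cyp2d9 (-2.76), Cyp2c37 (-2.73) and Cyp3a25 (-2.50). In 5 genes it was the higher one, namely Cyp4a14 (1.78), Cyp2s1 (1.09), Cyp1b1 (0.79), Cyp17a1 (0.71) and Cyp4b1 (0.56), the last through its fall in macrophages.

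Between hepatocytes and SEC 30 genes had the lower change in hepatocytes, led by Cyp2d9 (-3.77), Cyp2c37 (-3.23), Cyp2c23 (-3.12), Cyp2c50 (-3.09) and Cyp3a25 (-2.68). The change was higher in hepatocytes for 6, of which Cyp4a14 (1.75), Cyp4f18 (1.44), Cyp2s1 (1.08), Cyp4f16 (0.85) and Cyp17a1 (0.67) were the largest.

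Between macrophages and SEC 10 genes had the lower change in macrophages, led by Cyp2d9 (-1.01), Cyp2c70 (-0.97), Cyp4v3 (-0.91), Cyp2d10 (-0.81) and Cyp4b1 (-0.67). It was higher in macrophages for 2, Cyp4f18 (1.67) and Cyp4f16 (0.60). For Cyp2d9, Cyp2c70 and Cyp2d10 the gene fell in macrophages and rose in SEC. These tests share the arrays of a cell type, so they are not independent of each other.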

How the results depend on the processing

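No named gene reversed direction under the alternatives run where either fit called it. The counts in hepatocytes were 6 to 7 higher and 31 to 32 lower with each array left out in turn, where the lone array left in a group is assumed to vary like the others. In macrophages they were 2 and 2 higher and 5 to 11 lower (5 without untreated replicate 2, 6 without DEN replicate 2), and in SEC 3 to 6 higher (3 without untreated replicate 1 or DEN replicate 1) and 0 to 1 lower. For the difference between hepatocytes and macrophages they were 4 to 7 and 29 to 30, between hepatocytes and SEC 5 to 7 and 30 to 30, and between macrophages and SEC 2 to 2 and 8 to 13. Between untreated cell types they were 31 to 32 higher and 3 to 3 lower (hepatocytes and macrophages), 31 to 32 and 3 to 4 (hepatocytes and SEC) and 3 to 6 and 5 to 6 (macrophages and SEC). With the background subtracted 11 genes rose in SEC and 11 were higher in untreated macrophages than in SEC (6 and 4 as reported). With only the arrays of the cell types compared the change was lower in macrophages than in SEC for 17 genes (10 as reported), and 9 were higher in untreated macrophages than in SEC. With cyclic loess 5 were lower in untreated hepatocytes than in SEC (3 as reported). The cause of these shifts was not tested. With the replicate block the hepatocyte counts were 6 and 32, the macrophage counts 2 and 10 and the SEC counts 6 and 0, as without it. The numbers did not pair the samples. The difference between replicates 1 and 2, taken gene by gene, correlated between groups with r of only -0.061 to 0.078.

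The median hepatocyte change was -2.33 with the background subtracted, -0.10 with no filter (72 genes) and -0.81 with cyclic loess. Calls were lost in 4 settings for Cyp4f13 in hepatocytes. In macrophages they were lost in 7 for Cyp2c70, 6 for Cyp2j9, 4 for Cyp2c67 and 2 each for Cyp2d10 and Cyp2a12. In SEC they were lost in 5 for Cyp2d26, 3 for Cyp2c67 and 2 each for Cyp2c70 and Cyp2d9. With the background subtracted, calls of a difference between hepatocytes and macrophages were lost for Cyp2d9 (-0.53), Cyp2c37 (-0.98), Cyp17a1 (1.36) and Cyp4b1 (0.79), and between hepatocytes and SEC for Cyp17a1 (1.13) and Cyp4a14 (3.00). The 30 P450 genes not tested lie near background, where these arrays cannot show a change.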
